A study of Homo sapiens with 4 samples.

Results

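Genes of fatty acid and triglyceride synthesis were followed in Huh7 cells, an established human hepatocellular carcinoma line, after knockdown of NUP210, which encodes a membrane-spanning subunit of the nuclear pore. The set is 34 gene symbols chosen for their roles in this pathway, with earlier results of these data known. They were matched to the gene-symbol column, and 33 of them are listed among the 20226 genes of each deposited table. THRSP is the member with no row under its symbol or gene identifier. The 33 genes were arranged in 8 steps, from the supply of acetyl-CoA to the loading of lipid onto lipoproteins.

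The study compared 2 libraries of cells carrying a short hairpin RNA against NUP210 (shNUP210) with 2 libraries of control cells. The control titles read shCon and their genotype label reads wild type, and all 4 libraries are labelled untreated. Neither the hairpin sequence nor the vector is given in the labels, and nothing there says whether a single hairpin or clone was used, or whether replicate libraries were grown apart. The p-values below thus reflect library-to-library spread alone, part or all of which may be technical.

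Liver cells make fatty acids from acetyl-CoA in the cytosol. Acetyl-CoA carboxylase and fatty acid synthase build palmitate, elongases and desaturases modify it, and acyltransferases esterify the products to glycerol as phospholipid and triglyceride. Triglyceride is stored in lipid droplets or secreted in very-low-density lipoprotein, and the transcription factors SREBP-1c and ChREBP induce much of the pathway after feeding.

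Values are TPM, each transcript's share of a library on a fixed total, which are normalised for transcript length and for the library total, so they can be compared between genes within a library. TPM keeps no read depth, which is therefore unknown. The shNUP210 libraries held 14564 and 14405 genes at 1 TPM or more, and the shCon libraries 13920 and 13675. The top 100 genes took 37.6 and 38.1% of the TPM total in shNUP210 and 42.8 and 43.5% in shCon. The part of this difference in the fold changes below was not tested. NUP210 itself read 10.1 and 9.85 TPM after knockdown and 32.8 and 27.3 TPM in the controls (limma adjusted p = 0.0432). Of the 6 hepatocyte-lineage markers checked, all were listed at high levels, with ALB at 2332 to 2627 TPM and AFP at 5450 to 6054 TPM. None of the 6 passed the test. TTR came nearest, at 397 and 438 TPM in shNUP210 and 288 and 275 TPM in shCon (log2 fold change 0.56, limma adjusted p = 0.0501). Both shNUP210 libraries lay above both controls for TTR, AFP and HNF4A, and the groups overlapped for ALB, APOB and GPC3. The leukocyte genes PTPRC and CD3E, the endothelial genes PECAM1, CDH5 and VWF, the fibroblast gene DCN and the biliary gene KRT7 have no row. The 2 listed leukocyte markers summed to 6.3 to 21.3 TPM in shNUP210 and 27.4 to 35.2 TPM in shCon. Of these, CD68 was at 13.85 and 2.48 TPM against 30.66 and 17.85 TPM (limma adjusted p = 0.20), and CD14 overlapped. The 3 listed fibroblast markers summed to 18 to 35.6 TPM in shNUP210 and 10.3 to 15.0 TPM in shCon. Of these, COL1A1 was at 18.92 and 7.55 TPM against 1.25 and 3.8 TPM (limma adjusted p = 0.14). LUM also lay higher but was not tested, and PDGFRB overlapped. Of the 2 listed biliary markers, which summed to 225.7 to 252.1 TPM in shNUP210 and 110.2 to 131.6 TPM in shCon, SOX9 was at 59.8 and 43.3 TPM against 56.5 and 52.1 TPM, with overlap (limma adjusted p = 0.81). The other, the keratin KRT19, rose, from 75.1 and 58.1 TPM in shCon to 192 and 182 TPM in shNUP210 (limma adjusted p = 0.0215). The part of these markers in the results below was not tested, and in bulk RNA fewer cells of a type and less RNA per cell cannot be told apart.

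After knockdown 2 members of the pathway fell: ACSS2, which makes acetyl-CoA from acetate, and DGAT1, which adds the last acyl chain of triglyceride. No member rose. The test was limma on log2(TPM + 1) across the 10140 genes with at least 5 TPM in at least 2 libraries, with Benjamini-Hochberg adjustment over all of them, and a gene passed at an adjusted p under 0.05. Of the 30 members that reached this level, 2 were called lower (6.67%), against 1.07% of all genes tested. Higher calls numbered 0, against 1.79% (2.86% in either direction). The members were chosen with earlier results known, so shares of members here and below are descriptions and the list was given no test. At an unadjusted limma p under 0.05 there were 5 members lower and 4 higher, where all genes gave 5.95% and 18.4%. None of the 30 passed the level filter through 1 group alone. ACACB, ACSL5 and PNPLA3 were below it and were not tested.

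The log2 fold changes of the members spread to both sides of 0. Over the 30 tested members the median was 0.02, where the median of all genes tested was 0.23; with the 3 untested members included it was -0.08. After trimmed-mean scaling, which sets the libraries to a common centre, the median was -0.32 over the 33 listed members and 0.0024 over all genes tested. These 2 medians are of unlike sets, because the 33 include the 3 untested members. Those were at log2 values of -0.58 (ACACB), -0.77 (ACSL5) and -0.83 (PNPLA3) after that scaling. With it 4 members were called lower, against 2.49% of all genes, and 0 higher, against 0.75%. Both shNUP210 libraries lay below both shCon libraries for 9 of the 30 tested members (30%, against 14.3% of all genes), and above both for 7 (23.3%, against 42.9%). Abundant genes as a whole were shifted less than the rest, with a median log2 fold change of 0.10 over the 2665 tested genes at 50 TPM or more. The part of that trend in the position of these members was not tested.

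**Figure D1:**
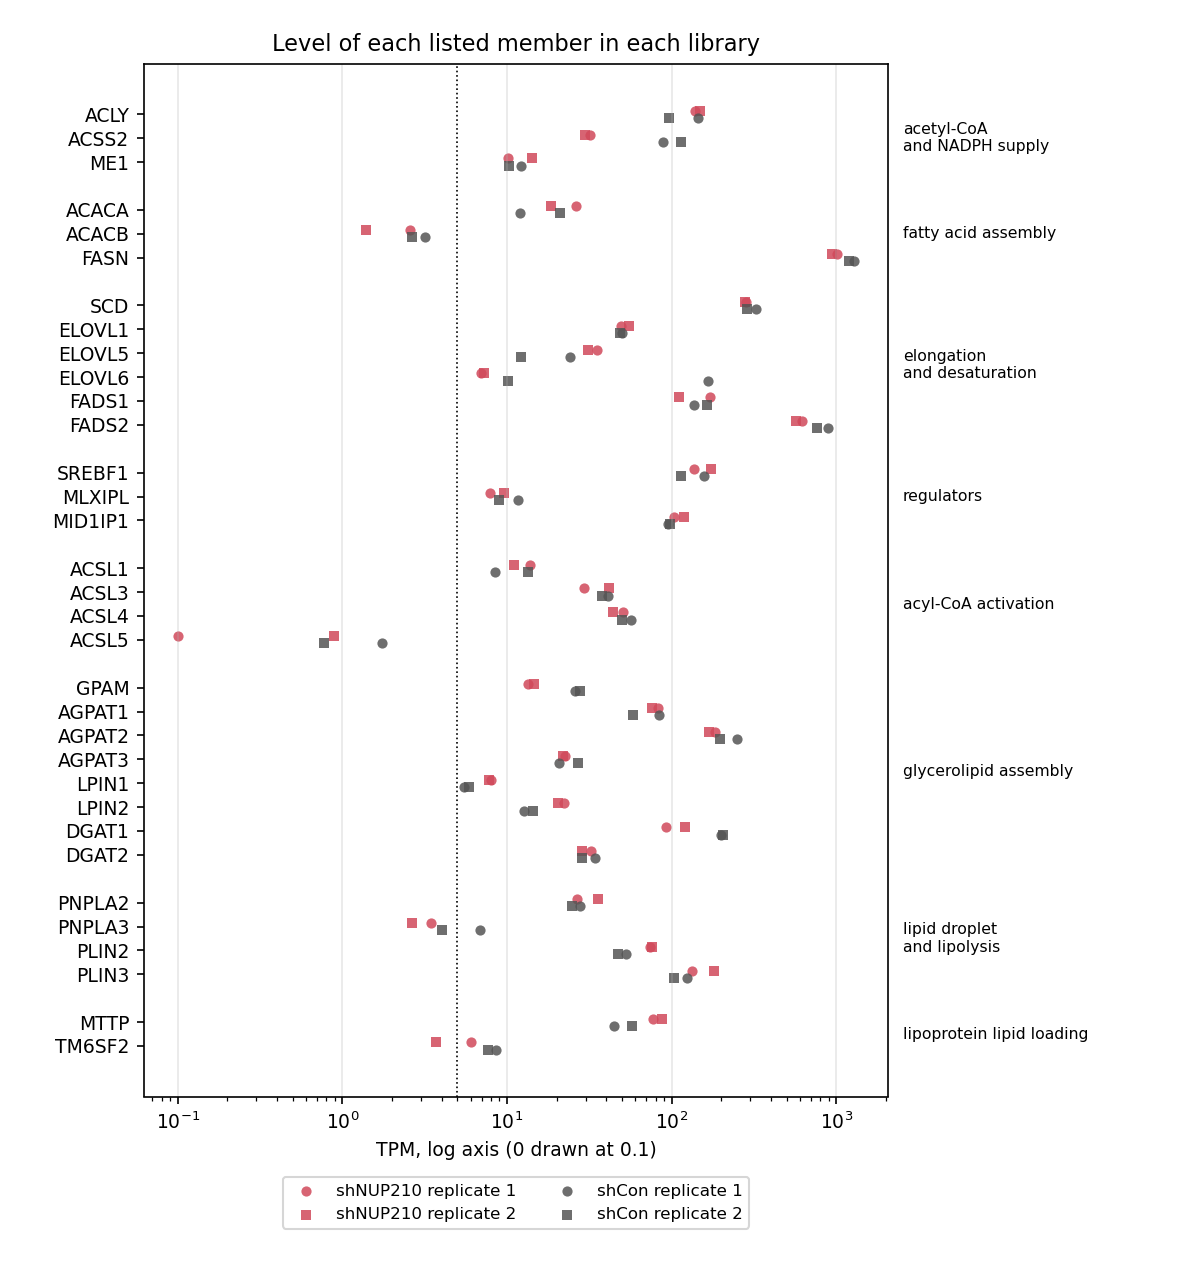
Level of each of the 33 listed members in each library, in TPM on a log axis, ordered by step; red marks are shNUP210 and grey marks shCon, circles are replicate 1 and squares replicate 2, a value of 0 is drawn at 0.1, and the dotted line is the filter at 5 TPM. FASN and FADS2 are the most abundant members, ACSS2, DGAT1 and GPAM lie lower in both shNUP210 libraries, and ELOVL6 is high in a single shCon library.

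The members were expressed over a wide range. FASN, FADS2 and SCD together took 52.0 to 58.3% of the summed TPM of the 33 genes in each library. That sum was 3513 and 3455 TPM in shNUP210 and 4405 and 3859 TPM in shCon, and without ELOVL6 it was 3506 and 3448 TPM against 4240 and 3849 TPM. The groups did not overlap in either sum.

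Acetyl-CoA and NADPH supply held the largest drop that passed the test. ACSS2 (ENSG00000131069, GRCh38 chromosome 20, 34872146 to 34927962, plus strand, protein-coding), the cytosolic and nuclear acetyl-CoA synthetase, was at 32.0 and 29.6 TPM in shNUP210 and at 88.1 and 113 TPM in shCon. Both knockdown libraries were far below both controls, with no overlap. The group means were 30.8 ± 1.7 and 101 ± 18 TPM (SD, n = 2 each), a log2 fold change of -1.67 (SE 0.18, limma adjusted p = 0.0217). The call was lost when any single library was left out, with adjusted p between 0.113 and 0.132.

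ACLY, which makes acetyl-CoA from citrate, was at 139 and 149 TPM in shNUP210 and at 144 and 96.1 TPM in shCon, so its groups overlapped. Its log2 fold change was 0.29 (95% interval -0.22 to 0.80, limma adjusted p = 0.43). Within each library, ACLY made up 81.3 and 83.4% of the summed TPM of ACLY and ACSS2 in shNUP210 and 62.0 and 45.9% in shCon. Shares of the 2 groups did not overlap, and no single scaling factor per library can alter them. ME1, the cytosolic malic enzyme that yields NADPH, was at 10.1 to 14.1 TPM over the 4 libraries, with overlapping groups (adjusted p = 0.89).

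Promoters are shown for 4 tested members with a promoter window, first those that passed the test, then those with the largest fold change. They are ACSS2, ELOVL6, ELOVL5 and GPAM. The ACSS2 sequence is from RefSeq on GRCh38.p14, plus strand, chr20:34876362-34876661, 250 bases before to 50 bases after a start. Of the gene's RefSeq windows it is the one with most annotated GENCODE transcript starts nearby, 9 of 24. Capitals mark matches to any of 4 short motifs, searched on both strands. They are the E-box CACGTG (bound by SREBP, USF and ChREBP-MLX factors), a sterol element TCACNCCAC (SREBP), the NF-Y box CCAAT and the GC box GGGCGG (Sp1-family factors).
ACSS2: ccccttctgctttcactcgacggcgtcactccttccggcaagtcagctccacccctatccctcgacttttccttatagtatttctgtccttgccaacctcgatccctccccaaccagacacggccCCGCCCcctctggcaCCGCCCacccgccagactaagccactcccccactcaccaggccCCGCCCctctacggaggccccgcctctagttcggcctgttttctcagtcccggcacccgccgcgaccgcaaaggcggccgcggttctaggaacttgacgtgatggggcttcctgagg
The window held 3 GC boxes, all on the opposite strand, whose first bases lie 125, 110 and 67 bases before the start, and no match to the other 3 motifs. Of the 35116 RefSeq promoter windows, 45.0% held a GC box, 34.6% an NF-Y box, 7.26% the E-box and 1.13% the sterol element. Windows were found for 30 of the 34 members, and not for DGAT1, DGAT2, FASN and PNPLA3. There were 50 windows in all because some genes have several starts. Of these 50, 34 held a GC box, 22 an NF-Y box, 3 the E-box (ELOVL5, LPIN2 and PLIN2) and 3 the sterol element (ACSL1, MID1IP1 and PNPLA2). None of these matches overlapped another motif in the windows printed here. A match describes letters in a window and is not evidence of binding.

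Fatty acid assembly was dominated by FASN (chromosome 17, 82078333 to 82098332, minus strand), the multifunctional fatty acid synthase and the most abundant member of the set. FASN was at 1016 and 946.8 TPM in shNUP210 and at 1285 and 1193 TPM in shCon. Both shNUP210 libraries were lower, by less than the ACSS2 drop, and the replicates of each group lay within 1.08-fold of each other. Its log2 fold change was -0.34 (SE 0.08, limma adjusted p = 0.0861), which did not pass in TPM as deposited. It passed after trimmed-mean, median-ratio and upper-quartile scaling (adjusted p 0.0274, 0.0277 and 0.0296) and not after quantile normalization (0.0853).

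The carboxylases that make malonyl-CoA were expressed far below FASN. ACACA, the cytosolic form for synthesis, was at 26.1 and 18.4 TPM in shNUP210 and at 11.9 and 21.0 TPM in shCon, with overlapping groups (limma adjusted p = 0.46). ACACB, the mitochondrial-surface form whose malonyl-CoA restrains fatty acid oxidation, was at 2.59 and 1.39 TPM against 3.16 and 2.63 TPM and was not tested.

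Among the elongases and desaturases no member passed the test. FADS2 (chromosome 11, 61792980 to 61867354, plus strand), the first desaturase of polyunsaturated fatty acid synthesis, was at 622.8 and 571.3 TPM in shNUP210 and at 889.7 and 767.8 TPM in shCon. The groups did not overlap, and the log2 fold change was -0.47 (SE 0.10, limma adjusted p = 0.0750). Like FASN, FADS2 passed after trimmed-mean, median-ratio and upper-quartile scaling (adjusted p 0.0277, 0.0281 and 0.0320) and not after quantile normalization (0.109). FADS1, the next desaturase in that route, was at 171.8 and 110.3 TPM against 136.9 and 163.0 TPM, and its groups overlapped (adjusted p = 0.79). FADS1 and FADS2 lie on opposite strands and share 490 bases of annotated exon, and strand-aware counting is not stated, so their values are not fully separate. SCD, which makes monounsaturated fatty acids, was at 284.1 and 279.3 TPM against 323.7 and 287.7 TPM (log2 fold change -0.12, 95% interval -0.37 to 0.14, adjusted p = 0.53).

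The elongases differed among themselves. ELOVL6 (chromosome 4, 110045846 to 110199199, minus strand), which lengthens palmitate to stearate, was at 6.92 and 7.29 TPM in shNUP210 and at 165.9 and 10.1 TPM in shCon. A single library, shCon replicate 1, was 16.4-fold above the other control, and the remaining 3 libraries lay close together. The log2 difference between the control libraries, 3.91, ranked 29 among the 10140 tested genes, where the median difference was 0.27. The log2 fold change of -2.41 (95% interval -5.33 to 0.51, limma adjusted p = 0.27) rests on that library: without shCon replicate 1 it was -0.46 (adjusted p = 0.55), and without shCon replicate 2 it was -4.36 (adjusted p = 0.0565).

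ELOVL5, the elongase of polyunsaturated fatty acids, was at 35.4 and 31.2 TPM in shNUP210 and at 24.2 and 12.2 TPM in shCon. Both knockdown libraries were above both controls (log2 fold change 0.91, 95% interval 0.06 to 1.76, limma adjusted p = 0.19), but the controls differed by 1.98-fold between themselves. ELOVL1, which makes very long saturated chains, was at 48.5 to 55.1 TPM over the 4 libraries (adjusted p = 0.78). The promoters of ELOVL6 (GRCh38.p14, minus strand, chr4:110198566-110198865) and ELOVL5 (minus strand, chr6:53348901-53349200) are shown by the rule given for ACSS2. Capitals mark the same motifs.
ELOVL6: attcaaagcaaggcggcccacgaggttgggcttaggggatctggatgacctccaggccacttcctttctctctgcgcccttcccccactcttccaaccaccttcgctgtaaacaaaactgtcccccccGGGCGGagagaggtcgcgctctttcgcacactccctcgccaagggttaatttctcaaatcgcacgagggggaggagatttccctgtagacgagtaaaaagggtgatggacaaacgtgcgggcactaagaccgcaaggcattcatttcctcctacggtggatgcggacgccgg
ELOVL5: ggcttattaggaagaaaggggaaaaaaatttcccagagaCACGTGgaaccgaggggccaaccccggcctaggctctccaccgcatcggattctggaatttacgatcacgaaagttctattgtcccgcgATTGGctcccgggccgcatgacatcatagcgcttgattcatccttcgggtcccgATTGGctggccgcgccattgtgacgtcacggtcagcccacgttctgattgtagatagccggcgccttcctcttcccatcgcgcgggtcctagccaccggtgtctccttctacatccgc
The ELOVL6 window held 1 GC box, 122 bases before the start. The ELOVL5 window held the E-box 211 bases before the start and 2 NF-Y boxes on the opposite strand, at 122 and 68 bases before it.

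The regulators of the pathway did not pass the test. SREBF1, the gene of SREBP-1, was at 136.5 and 172.6 TPM in shNUP210 and at 157.9 and 114.3 TPM in shCon. The groups overlapped, and the interval of the log2 fold change ran from -0.31 to 0.69 (limma adjusted p = 0.59). MLXIPL, the gene of ChREBP, was at 7.86 and 9.61 TPM against 11.6 and 8.99 TPM, also with overlap (adjusted p = 0.71). MID1IP1, which promotes polymerisation of acetyl-CoA carboxylase, was at 103.7 and 118.3 TPM against 94.8 and 98.2 TPM (log2 fold change 0.20, adjusted p = 0.41). Its groups did not overlap in TPM as deposited, but the sign of this fold change was negative after trimmed-mean, median-ratio and upper-quartile scaling.

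The acyl-CoA synthetases, which activate fatty acids for esterification or oxidation, showed overlapping groups throughout. ACSL4, which prefers arachidonate and was the most abundant of the 4, was at 50.9 and 44.1 TPM in shNUP210 and at 56.4 and 50.1 TPM in shCon (limma adjusted p = 0.59). ACSL3, the form on the endoplasmic reticulum and nascent lipid droplets, was at 29.2 to 41.8 TPM over all libraries. ACSL1, the main form of oxidative tissues and liver, was at 8.40 to 13.8 TPM (adjusted p 0.67 and 0.75 for ACSL3 and ACSL1). ACSL5 was listed at 0 in 1 shNUP210 library and reached at most 1.73 TPM, and it was not tested.

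In glycerolipid assembly GPAM and DGAT1 were lower in the knockdown, and DGAT1 passed the test. These genes act at the first and the last acylation of triglyceride synthesis. DGAT1 (ENSG00000185000, protein-coding) was at 92.8 and 120 TPM in shNUP210 and at 200.4 and 205.2 TPM in shCon. Both knockdown libraries lay well below both controls, and the controls were nearly equal. The group means were 107 ± 19 and 203 ± 3.4 TPM (SD, n = 2 each), a log2 fold change of -0.93 (SE 0.15, limma adjusted p = 0.0481). The call lies at the threshold: with a pseudocount of 0.5 the adjusted p was 0.0501, and without any single library it was 0.0964 to 0.187. The neighbouring gene HSF1, on the opposite strand, shares 139 bases of annotated exon with DGAT1. HSF1 was at 124 and 108 TPM in shNUP210 and at 130 and 109 TPM in shCon. GS1-393G12.12, on the same strand, shares 444 bases of exon with DGAT1. It was at 3.02 and 0 TPM in shNUP210 and at 7.55 and 0 TPM in shCon. The part of either gene in the DGAT1 value was not tested.

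DGAT2, an unrelated enzyme that catalyses the same reaction and handles newly made fatty acids, was at 32.4 and 28.4 TPM in shNUP210 and at 34.2 and 28.7 TPM in shCon. Its groups overlapped, with a log2 fold change of -0.05 (95% interval -0.55 to 0.46, adjusted p = 0.92). DGAT1 thus made up 74.1 and 80.9% of the summed TPM of the pair in shNUP210 and 85.4 and 87.7% in shCon, without overlap. The mean share differed by -9.07 percentage points, with a pooled SD of 3.59. It differed by -5.66 points without shNUP210 replicate 1, by -12.5 points without shNUP210 replicate 2, and by -7.78 points after quantile normalization, which is not a single factor per library. An exact permutation of 2 against 2 libraries cannot give a two-sided p below 0.333, so no p is given for shares. DGAT2 shares 423 bases of exon with the antisense gene RP11-535A19.1, which was at 58.3 to 85.1 TPM and so above DGAT2 in every library.

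GPAM (chromosome 10, 112149864 to 112215377, minus strand), the mitochondrial glycerol-3-phosphate acyltransferase that commits acyl chains to glycerol, was at 13.5 and 14.7 TPM in shNUP210 and at 25.8 and 27.7 TPM in shCon. The groups were well apart and the replicates of each lay within 1.09-fold. The group means were 14.1 ± 0.85 and 26.7 ± 1.3 TPM, a log2 fold change of -0.88 (SE 0.22, limma adjusted p = 0.0932). GPAM thus resembled DGAT1 in the size of its difference without passing the test, and it did not pass under any alternative (lowest adjusted p 0.0632, after trimmed-mean scaling). Another gene of the first acylation, GPAT4, went the other way. It is from the further lists described below and is named here after its values were seen. GPAT4 was at 87.8 and 57.9 TPM in shNUP210 and at 33.9 and 49.9 TPM in shCon, without overlap. Its log2 fold change was 0.78 (limma adjusted p = 0.17, and 0.35 after trimmed-mean scaling). GPAT2 and GPAT3, of the same acylation, were below the level filter and were not tested. The GPAM promoter window (GRCh38.p14, minus strand, chr10:112183716-112184015) is shown by the rule given for ACSS2.
GPAM: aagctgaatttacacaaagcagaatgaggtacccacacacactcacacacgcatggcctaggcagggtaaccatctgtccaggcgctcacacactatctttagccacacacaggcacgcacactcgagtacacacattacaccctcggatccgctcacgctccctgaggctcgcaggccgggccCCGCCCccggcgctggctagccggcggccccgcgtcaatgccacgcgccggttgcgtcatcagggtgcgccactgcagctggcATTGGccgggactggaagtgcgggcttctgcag
It held 1 GC box 66 bases before the start and 1 NF-Y box that begins at base 18 after it, both on the opposite strand.

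No gene in the middle of the route passed the test. AGPAT2, the lysophosphatidate acyltransferase with the highest level in this step, was at 182.5 and 168.2 TPM in shNUP210 and at 250.6 and 197.7 TPM in shCon. The groups did not overlap, and the log2 fold change was -0.34 (95% interval -0.71 to 0.02, limma adjusted p = 0.22). AGPAT1, its ubiquitous relative, was at 82.1 and 75.7 TPM against 84.0 and 57.9 TPM, with overlap. AGPAT2 took 69.0% of the summed TPM of AGPAT1 and AGPAT2 in each shNUP210 library and 74.9 and 77.3% in shCon. AGPAT3 was at 20.8 to 27.0 TPM over the 4 libraries (adjusted p = 0.85).

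Of the lipins, phosphatidate phosphatases that supply diacylglycerol, the members LPIN1 and LPIN2 were higher in both knockdown libraries without passing. LPIN2 was at 22.2 and 20.4 TPM in shNUP210 and at 12.6 and 14.5 TPM in shCon (log2 fold change 0.62, 95% interval 0.04 to 1.20, limma adjusted p = 0.19). LPIN1 was at 7.95 and 7.78 TPM against 5.47 and 5.87 TPM (log2 fold change 0.41, adjusted p = 0.49). Neither pair of groups overlapped, a pattern seen upward in 42.9% of all genes tested. LPIN3, from the further lists described below, was below the level filter and was not tested, and its groups overlapped.

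**Figure D2:**
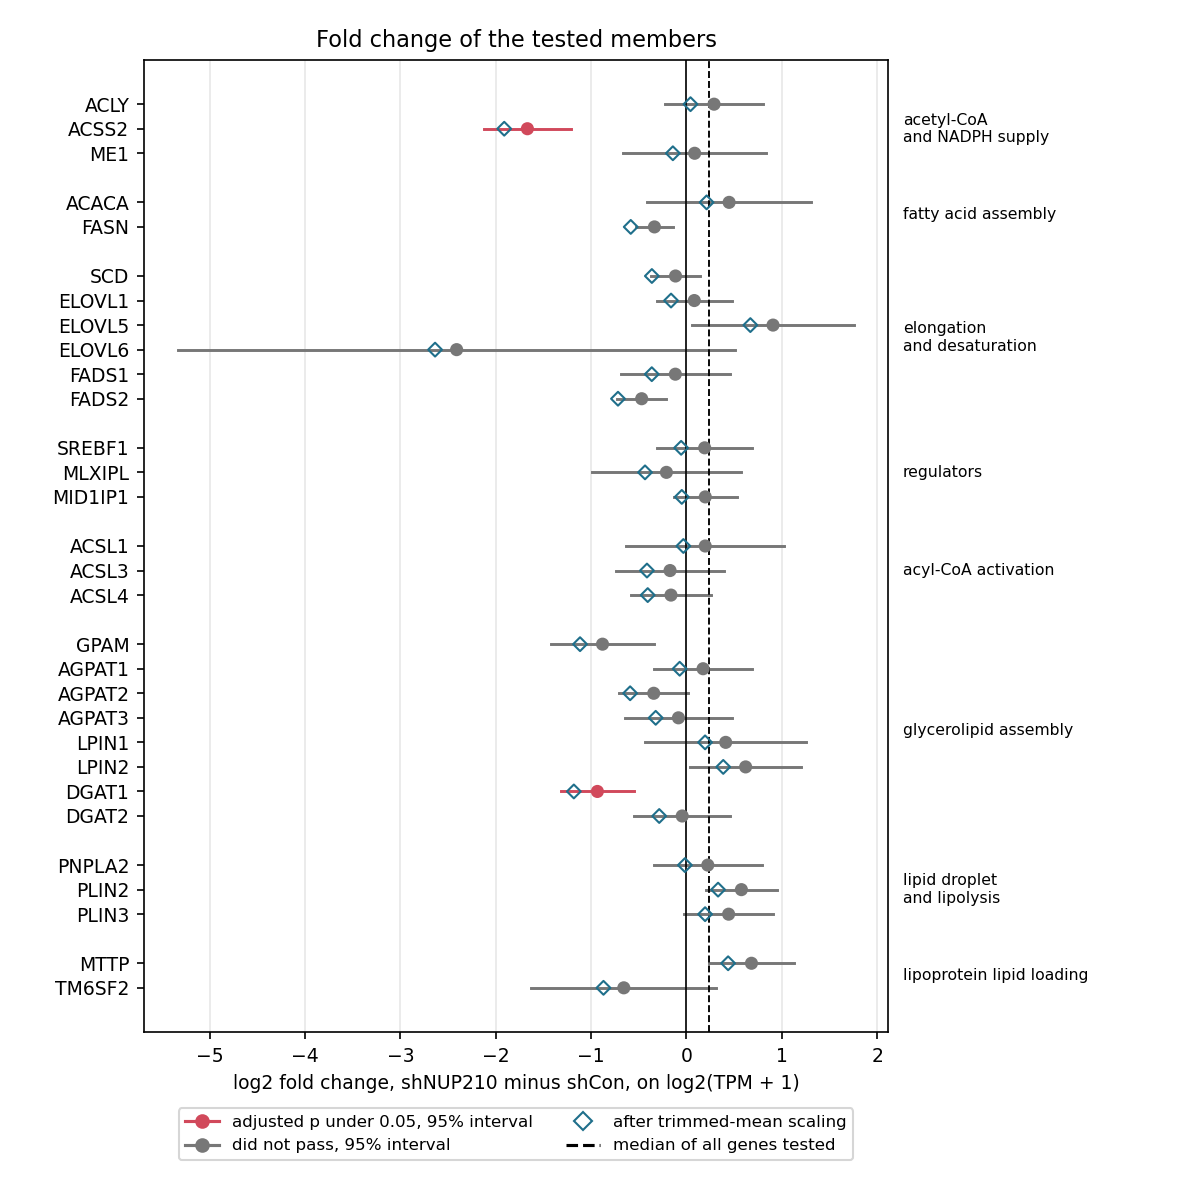
Log2 fold change (shNUP210 minus shCon, on log2(TPM + 1)) of the 30 tested members by step, with 95% intervals from limma; red marks passed an adjusted p of 0.05, open diamonds give the value after trimmed-mean scaling, and the dashed line is the median of all genes tested (0.23). ACSS2 and DGAT1 are the red points, and the interval of ELOVL6 runs from -5.33 to 0.51.

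Of the droplet coat genes, the members PLIN2 and PLIN3 were at higher levels in both knockdown libraries, again without passing. Among all genes tested, 42.9% lay above without overlap. After trimmed-mean scaling the log2 fold changes were 0.33 for PLIN2 and 0.19 for PLIN3. PLIN1, PLIN4 and PLIN5, from the further lists described below, did not reach the level filter and were not tested. PLIN2, the coat protein of hepatocyte lipid droplets, was at 73.8 and 76.2 TPM in shNUP210 and at 53.0 and 47.1 TPM in shCon. The groups did not overlap (log2 fold change 0.58, SE 0.15, limma adjusted p = 0.10). PLIN3, a coat protein that moves to droplets from the cytosol and the most abundant gene of this step, was at 132.6 and 180.4 TPM against 124.2 and 103.9 TPM (log2 fold change 0.44, adjusted p = 0.22). The antisense gene CTC-518P12.6 shares 502 bases of exon with PLIN3 and was at 116 and 150 TPM against 73.6 and 79.3 TPM; its part in the PLIN3 value was not tested.

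The droplet lipase genes showed no call. PNPLA2, which encodes adipose triglyceride lipase, was at 26.5 and 35.7 TPM in shNUP210 and at 27.7 and 24.9 TPM in shCon, with overlap (limma adjusted p = 0.58). PNPLA3, a related droplet protein, was at 3.45 and 2.65 TPM against 6.84 and 4.01 TPM. Its groups did not overlap, but it was below the level filter and was not tested, and it shares 148 bases of exon with SAMM50 on the same strand.

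Lipoprotein loading gave its 2 members in opposite directions. MTTP (chromosome 4, 99563761 to 99623999, plus strand), the large subunit of the microsomal triglyceride transfer protein that lipidates apolipoprotein B, was at 76.7 and 87.1 TPM in shNUP210 and at 44.7 and 57.2 TPM in shCon. The groups did not overlap, and the means were 81.9 ± 7.4 and 50.9 ± 8.8 TPM (log2 fold change 0.68, SE 0.18, limma adjusted p = 0.11). TM6SF2, a membrane protein needed for bulk lipid loading, was at 6.06 and 3.71 TPM against 8.54 and 7.67 TPM (log2 fold change -0.66, adjusted p = 0.35).

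Ratios within a library compare paired genes of the pathway in a way that no single scaling factor per library can alter. Of 12 pairs compared, the groups did not overlap in 8. The first-named gene had a higher share in shNUP210 in 3 (ACLY over ACSS2, ACACA over ACACB and PNPLA2 over PNPLA3). It had a lower share in 5 (DGAT1 over DGAT2, AGPAT2 over AGPAT1, LPIN1 over LPIN2, ELOVL6 over ELOVL5 and MLXIPL over SREBF1). ACACB and PNPLA3 were below the level filter. The pairs were picked by hand and no such count was made over other gene pairs, so 8 of 12 is a description only. Among single genes tested, 14.3% lay below and 42.9% above without overlap. The ELOVL6 share was 16.4 and 19.0% in shNUP210 and 87.3 and 45.3% in shCon, where the controls differed from each other by more than either knockdown library differed from the nearer control. The groups overlapped for ACSL3 with ACSL1, ACSL4 with ACSL3, PLIN2 with PLIN3 and FADS1 with FADS2.

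**Figure D3:**
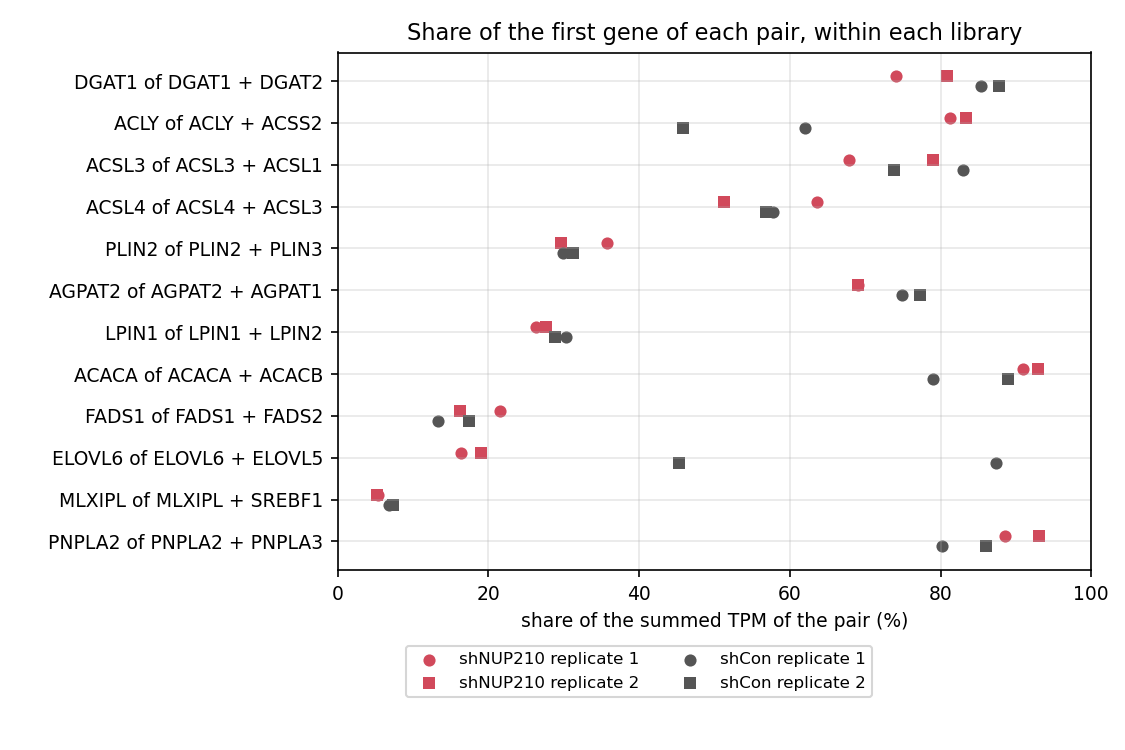
Share of the first-named gene in the summed TPM of each of 12 pairs, in percent, within each library; red marks are shNUP210, grey marks shCon, circles replicate 1 and squares replicate 2. ACLY lies at 81.3 and 83.4% in shNUP210 against 62.0 and 45.9% in shCon, and DGAT1 at 74.1 and 80.9% against 85.4 and 87.7%.

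A further 99 genes of the pathway were taken from 7 lists, and 91 of them have a row. Of the 65 that were tested, 3 were called lower (4.62%, against 1.07% of all genes) and 0 higher, against 1.79%. These lists too were chosen with earlier results known, so their shares are descriptions. At an unadjusted limma p under 0.05 there were 7 lower (10.8%, against 5.95%) and 8 higher (12.3%, against 18.4%). After trimmed-mean scaling 6 were called lower (9.23%, against 2.49%) and 0 higher, the added genes being SLC25A1, TECR and CYB5A. FABP1, the fatty acid-binding protein of the hepatocyte cytosol, fell from 741.0 and 779.2 TPM in shCon to 303.4 and 312.6 TPM in shNUP210 (log2 fold change -1.30, limma adjusted p = 0.00588). It was called in 13 of 16 alternative settings, and lost without shCon replicate 1 (adjusted p = 0.0666) or shCon replicate 2 (0.0737) and without the mean-variance trend (0.101). APOC3, which encodes an inhibitor of lipoprotein lipase carried on triglyceride-rich lipoproteins, fell from 110 and 89.2 TPM to 45.5 and 44.1 TPM (log2 fold change -1.12, adjusted p = 0.0379). P4HB, which encodes protein disulfide isomerase, the partner subunit of MTTP in the transfer protein, fell from 1771 and 1719 TPM to 1115 and 1273 TPM (log2 fold change -0.55, adjusted p = 0.0423). APOC3 and P4HB were called in 8 and 7 of the 16 settings; both were lost when any single library was left out, with adjusted p of 0.135 to 0.154 and 0.115 to 0.167.

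The list on SREBP and oxysterol receptor (LXR) control also holds MLX, MLXIP, USF1, USF2 and PPARG, and none of its genes was called. Of 12 tested genes in that list, 0 passed limma, against 2.86% of all genes tested. At an unadjusted limma p under 0.05, 3 were higher and 0 lower, where all genes gave 18.4% and 5.95%. Those 3 were MBTPS1, the site-1 protease that cleaves SREBP, at 29.4 and 25.8 TPM in shNUP210 against 17.1 and 16.6 TPM in shCon, MLX, the partner of ChREBP, at 47.7 and 51.4 against 35.3 and 33.99 TPM, and NR1H2, an oxysterol receptor (LXR), at 52.5 and 52.9 against 41.2 and 33.8 TPM. Their limma adjusted p were 0.14, 0.15 and 0.18, and 0.29, 0.41 and 0.46 after trimmed-mean scaling. These 3 are named here after their values were seen. PPARG, a nuclear receptor of lipid storage, had the largest fold change among the tested genes of this list, at 14.7 and 11.9 TPM against 15.3 and 3.17 TPM, and its groups overlapped (adjusted p = 0.50).

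In the remaining lists, 0 genes of substrate and NADPH supply (10 tested), of other fatty acid synthesis and elongation (12), of other glycerolipid assembly (7) and of other lipid droplet genes (10) passed limma. At an unadjusted limma p under 0.05 these lists held 1, 2, 0 and 0 genes lower and 2, 0, 1 and 2 higher. All genes tested gave 5.95% lower and 18.4% higher. The citrate carrier SLC25A1, which exports the substrate of ACLY from mitochondria, was at 294.5 and 282.5 TPM against 402.4 and 375.8 TPM (log2 fold change -0.43, limma adjusted p = 0.0742, and 0.0277 after trimmed-mean scaling). TECR, the last enzyme of the elongation cycle, was at 242.4 and 238.1 TPM against 322.5 and 374.4 TPM (log2 fold change -0.53, adjusted p = 0.0714, and 0.0404 after that scaling). CYB5A, the cytochrome that passes electrons to desaturases, was at 63.6 and 62.6 TPM against 96.3 and 97.9 TPM (log2 fold change -0.61, adjusted p = 0.0727, and 0.0366 after that scaling). None of these 3 pairs of groups overlapped, and SLC25A1, TECR and CYB5A were picked here after their values were seen.

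The largest fold changes among tested genes of most lists did not pass either. SLC27A2, a very-long-chain acyl-CoA synthetase and fatty acid transporter of liver, was at 0.84 and 0.92 TPM in shNUP210 and at 5.36 and 7.74 TPM in shCon (log2 fold change -1.99, limma adjusted p = 0.10), and it reached the filter through the shCon libraries alone. HILPDA, a hypoxia-induced droplet protein that inhibits adipose triglyceride lipase, was at 6.47 and 8.91 against 5.05 and 1.71 TPM (log2 fold change 1.09, adjusted p = 0.27). GPD1L, ELOVL2 and ACSS3 had the largest fold changes of their lists, with log2 values of 0.84, 0.65 and 0.57 (adjusted p 0.31, 0.23 and 0.33).

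**Figure D4:**
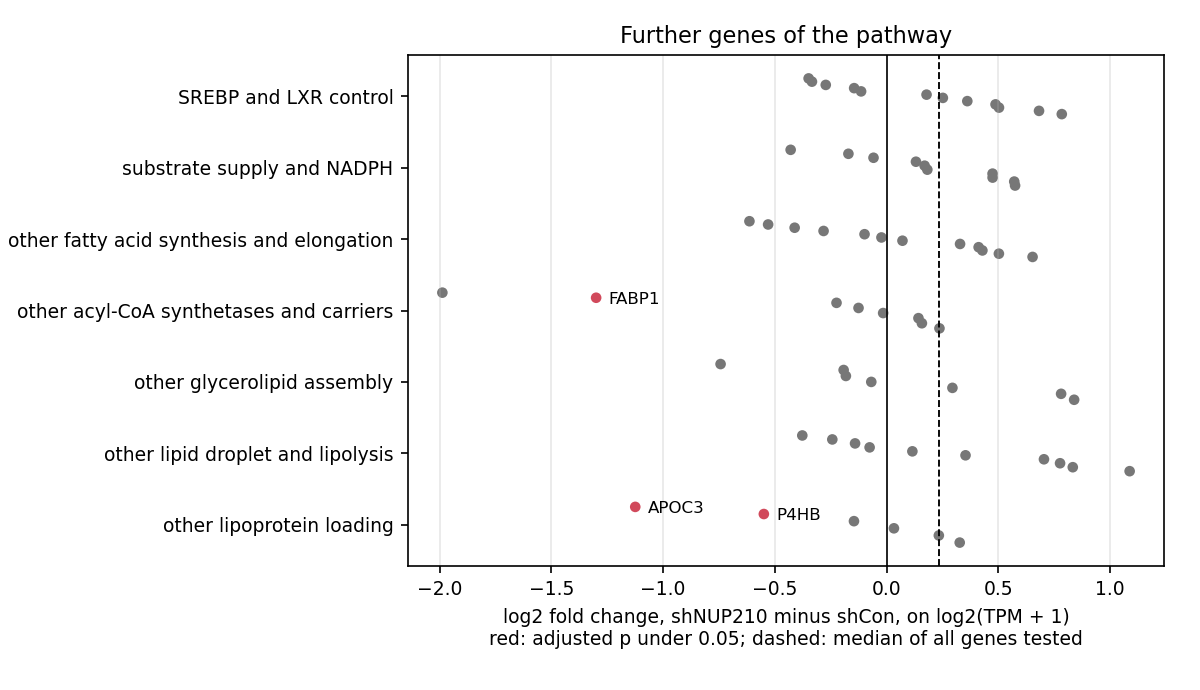
Log2 fold change (shNUP210 minus shCon, on log2(TPM + 1)) of the 65 further pathway genes that were tested, in 7 lists; each point is a gene, red points passed a limma adjusted p of 0.05, and the dashed line is the median of all genes tested. FABP1, APOC3 and P4HB are the 3 that passed, all of them lower.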

How the data were processed

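RNA of 4 Huh7 libraries was measured by RNA sequencing (Trizol extraction and an Illumina TruSeq RNA kit, per the labels' protocols). The authors deposited 1 table of TPM per library. The tools named in the submitters' processing notes are STAR, RSEM, Trimmomatic and DESeq, with build hg38; versions, roles and the annotation are not given in the sources used here. That the unit is TPM was read from column totals of 999992.7 to 999997.8.

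Genes with at least 5 TPM in 2 libraries were tested in R 4.3.3 by limma 3.58.1, using log2(TPM + 1) and a variance prior that follows the mean, and p-values were adjusted over all 10140 genes. Fold changes on this scale understate those of low genes. The script was tested on simulated data. Depth is unknown, so no counting intervals are given. Members were matched by symbol, other lists also by gene identifier; the members, lists, filter and test were chosen with earlier results of these data known. Members were named in full if called, if their groups did not overlap at a 1.5-fold difference of means, or if most abundant in their step; further genes if called or with the largest fold of their list. Positions and exon overlaps (100 bases or more) are from GENCODE release 29 on GRCh38, which lacks the listed ACACA identifier; promoters are from RefSeq. Alternatives changed the pseudocount, filter, scaling, variance model, a replicate block and the libraries used.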

Additional observations from a re-analysis of the deposited data

How the results depend on the processing

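Of the 16 alternatives, those of scaling moved the members together: the median log2 fold change of the 33 members was -0.32 after trimmed-mean, -0.32 after median-ratio, -0.29 after upper-quartile scaling and -0.21 after quantile normalization, and 4 members were called lower after each of the first 3 (ACSS2, DGAT1, FASN and FADS2). There was 1 member called lower with a pseudocount of 0.5 and 0 in each of 4 settings: all genes unfiltered, 1 TPM required in 2 libraries, no mean-variance trend, and the replicate block (at an unadjusted p under 0.05, 5, 5, 3 and 7 members were lower and 3, 4, 3 and 3 higher, where all genes gave 3.86, 5.07, 4.67 and 5.75% lower and 10.8, 15.2, 17.9 and 17.3% higher). Those 4 settings called 14, 57, 0 and 63 genes in all, in place of 290, and gave NUP210 adjusted p of 0.131, 0.0781, 0.0991 and 0.082 at an unaltered log2 fold change of -1.495. With trimmed-mean scaling the 328 calls were split into 76 higher and 252 lower, in place of 181 and 109; without the trend 2290 genes had an unadjusted p under 0.05. The replicate numbers of the titles pair no samples by design, and deviations of libraries with the same number correlated at 0.023. Without each library in turn, 4 to 27 genes and 0 members were called, the lone library being assumed to vary like the other group, and the log2 fold change of NUP210 was -1.62 to -1.37 (adjusted p 0.162 to 0.167). No member was called higher under any alternative.

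Fold changes near 0 changed sign with scaling, none of them called. After trimmed-mean, median-ratio and upper-quartile scaling and quantile normalization, the log2 values were -0.14, -0.14, -0.11 and -0.21 for ME1, -0.16, -0.16, -0.13 and -0.12 for ELOVL1, and -0.033, -0.028, -7.26e-05 and -0.096 for ACSL1. After the first 3 they were -0.056, -0.051 and -0.021 for SREBF1, -0.049, -0.044 and -0.015 for MID1IP1, and -0.072, -0.066 and -0.037 for AGPAT1. PNPLA2 was at -0.017, -0.012 and -0.0295 after trimmed-mean scaling, median-ratio scaling and quantile normalization. With each library left out in turn, 8 members took both signs: log2 values ran from -0.14 to 0.31 for ME1 (-0.017 without shCon replicate 2), -0.43 to 0.20 for FADS1 (0.0082 without shCon replicate 2), -0.041 to 0.42 for SREBF1, -0.11 to 0.51 for ACSL1, -0.43 to 0.081 for ACSL3, -0.091 to 0.44 for AGPAT1, -0.26 to 0.096 for AGPAT3 and -0.17 to 0.078 for DGAT2 (0.048 without shNUP210 replicate 2). TPM keeps no counts, so counting error could not be separated from other spread.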

Other observations

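MTTP and P4HB encode the 2 subunits of the microsomal triglyceride transfer protein, and P4HB also serves in disulfide formation throughout the endoplasmic reticulum. The ratio of MTTP to P4HB within a library was 0.0687 and 0.0684 in shNUP210 and 0.0253 and 0.0332 in shCon. The groups did not overlap. No single scaling factor per library can alter this ratio; quantile normalization, which is not such a factor, gave log2 fold changes of 0.51 for MTTP and -0.51 for P4HB in place of 0.68 and -0.55. The pair was chosen after the values of both genes were seen, so the ratio is given as a description with no test.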
